A study of Mus musculus with 8 samples.

Results

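The transcripts described here belong to 40 named genes of mitosis and chromosome segregation, listed by symbol. The rule that lists them uses no measured value, but the genes were chosen with earlier results of these data known. Each gene was read from the probe set that the platform annotation assigns to that gene alone, the brightest by its 8-array mean where there are several. Of the 40, 39 had such a probe set, among 22180 genes measured. Ncapg, a condensin subunit, was covered only by a probe set that carries a second symbol and was left out. The 39 genes were sorted by known role into mitotic entry kinases and cyclins (9), the spindle checkpoint and its ubiquitin ligase (6), the chromosomal passenger complex and outer kinetochore (5), spindle assembly (7), the central spindle and cytokinesis (6), and chromosome structure and condensin (6).

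A cell enters mitosis when CDK1 bound to a cyclin becomes active. The spindle checkpoint then holds the anaphase-promoting complex/cyclosome (APC/C), a ubiquitin ligase, in check until every kinetochore is attached, after which cohesin is cut, the chromatids part and the cytoplasm divides. Transcripts of these genes accumulate late in the cell cycle, and their level in bulk RNA is widely read as a measure of how many cells are cycling. Hepatic stellate cells, pericytes that store vitamin A, mostly rest in a healthy liver and can divide once activated to myofibroblasts, by injury or by growth on plastic.

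RNA from primary hepatic stellate cells of BALB/c mice, an inbred strain, was hybridised to 8 Affymetrix arrays, 2 in each of 4 groups. Quiescent cells (0h) came from mice with no treatment named and were not seeded. In vitro activated cells had been in culture for 10 days. In vivo activated cells came from mice with fibrosis after 2 or 4 weeks of carbon tetrachloride (CCl4), a liver toxin, and were likewise not seeded. All groups share a growth medium with serum and a treatment protocol naming valproic acid at 2.5 mM after seeding. Only the cultured group was seeded, and whether it received valproic acid is not settled by the labels. Valproic acid is a histone deacetylase inhibitor. Genotype is given only as the strain, and age and sex are not given in the sources used here. Separate animals, pools or cultures are not named for the 2 arrays of a group, so p-values rest on a spread between arrays that may be technical.

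Values are log2 RMA units, in which 1 unit is a 2-fold difference, and each gene was compared only with itself across arrays. Gene medians of the arrays ran from 4.99 to 5.12, and the 2 arrays of a group correlated at 0.98 to 0.99 over genes. As a rough guide to background, 95% of the values of 1390 olfactory and vomeronasal receptor genes lay at or below 4.76. Markers of activated stellate cells rose against quiescent cells in all 3 other groups (8 of 8 called in each), among them Acta2, smooth muscle actin, from 6.78 and 7.24 to 11.70 or more. Markers of other liver cells were present too: the summed linear level of 11 hepatocyte markers was 16340 to 28910 in quiescent cells, 6916 to 10910 at 2 weeks, 3077 to 3732 at 4 weeks and 359.5 to 413.2 in culture. The 12 macrophage markers summed to 2718 to 3468, 2728 to 3210, 1010 to 1044 and 1137 to 1341 in the same order, and 12 endothelial markers to 7442 to 14350, 2796 to 3542, 1647 to 2233 and 620.1 to 684.1.

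The promoters of these genes are known for a pair of short motifs, the cell cycle genes homology region (CHR), bound by the DREAM and MuvB complexes, and the CCAAT box, bound by NF-Y. RefSeq promoter windows (assembly GRCm38.p6, 250 bases before to 50 after the transcription start, the first window listed for a gene) matched 32 of the 39 genes by symbol. Ccna2, Pbk, Aurkb, Tpx2, Dlgap5, Kif20a and Smc4 had no entry. Searched on both strands, TTTGAA, the CHR core, was found in 24 of the 32 windows (75.0%) and in 18.1% of all 27025 windows. CCAAT was also in 24 of 32 (75.0%), against 37.9% of all windows. Both motifs stood together in 21 of 32 (65.6%), against 7.12%, and at least 2 CCAAT matches in 16 of 32, against 12.2% of all windows. A TTTGAA match within 50 bases of the start, a span chosen after the positions were seen, was found in 22 (68.8%) against 4.92%. The motifs overlapped once, in Cdca8. A match is a description of letters and not a binding site.

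The stretch from 120 bases before to 30 bases after the start is shown for the gene of each role with the largest change in culture among those whose window holds TTTGAA. Capitals mark the CHR core (TTTGAA, or TTCAAA where it lies on the opposite strand) and the CCAAT box (CCAAT, or ATTGG on the opposite strand). The windows are Cdk1 at chr10:69352883-69353032 on the minus strand, Ube2c at chr2:164769809-164769958 on the plus strand, Cdca8 at chr4:124936888-124937037 on the minus strand, Hmmr at chr11:40733408-40733557 on the minus strand, Anln at chr9:22389177-22389326 on the minus strand, and Top2a at chr11:99024160-99024309 on the minus strand, each written 5′ to 3′ on the strand of its gene.
Cdk1: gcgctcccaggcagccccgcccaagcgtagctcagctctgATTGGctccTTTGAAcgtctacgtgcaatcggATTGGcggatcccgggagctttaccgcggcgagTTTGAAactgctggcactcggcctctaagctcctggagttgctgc
Ube2c: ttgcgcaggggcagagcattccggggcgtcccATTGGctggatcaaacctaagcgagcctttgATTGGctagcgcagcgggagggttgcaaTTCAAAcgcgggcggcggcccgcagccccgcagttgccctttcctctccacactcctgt
Cdca8: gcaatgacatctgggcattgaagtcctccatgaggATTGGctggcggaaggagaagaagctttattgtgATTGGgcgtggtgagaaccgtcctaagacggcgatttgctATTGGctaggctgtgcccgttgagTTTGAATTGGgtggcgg
Hmmr: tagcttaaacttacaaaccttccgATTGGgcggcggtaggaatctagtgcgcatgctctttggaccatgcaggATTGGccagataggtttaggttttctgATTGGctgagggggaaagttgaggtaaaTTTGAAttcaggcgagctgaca
Anln: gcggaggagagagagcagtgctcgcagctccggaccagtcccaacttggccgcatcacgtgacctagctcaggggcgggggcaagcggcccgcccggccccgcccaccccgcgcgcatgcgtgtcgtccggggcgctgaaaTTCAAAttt
Top2a: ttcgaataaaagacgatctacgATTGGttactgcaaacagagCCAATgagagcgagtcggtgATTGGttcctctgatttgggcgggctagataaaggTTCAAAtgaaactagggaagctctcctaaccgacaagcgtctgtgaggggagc

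Cdk1 holds 2 CHR cores and 2 CCAAT boxes in this stretch, the second CHR core 15 bases before the start (counted from the first base of a match to the first transcribed base). In Ube2c, Hmmr and Top2a a row of 2 or 3 CCAAT boxes stands before a single CHR core that lies within 29 bases of the start. Cdca8 has 4 CCAAT boxes, and Anln has a CHR core 22 bases after the start and none of the CCAAT letters. Over all 32 windows, the median first base of the 31 CHR matches was 3 bases from the start and that of the 59 CCAAT matches was -68, with 56 of the latter before the start. Of 27 DNA replication genes with a window, listed for comparison because they belong to an earlier phase of the same cell cycle, 4 held TTTGAA (14.8%) and 17 held CCAAT (63.0%). Melk, Mad2l1, Birc5, Nusap1 and Ncaph held neither motif.

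**Figure D1:**
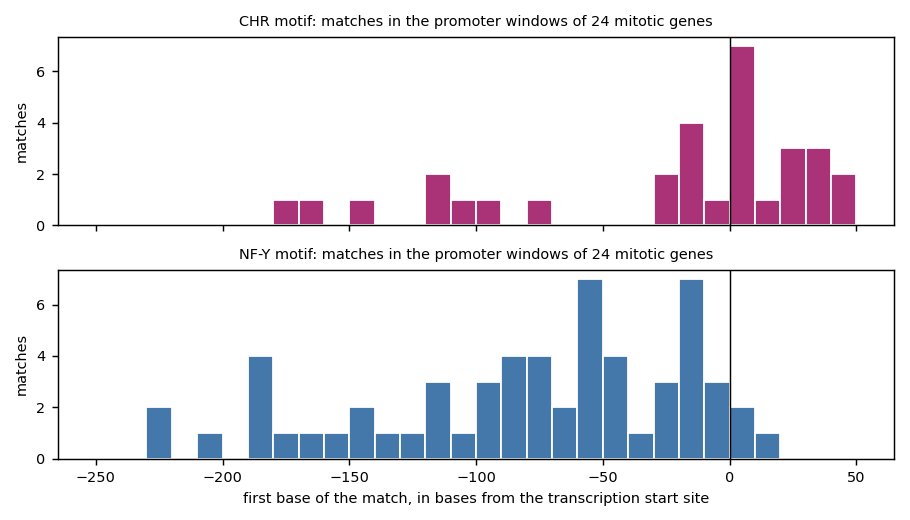
Number of motif matches in equal bins along the promoter windows of the mitotic genes, against distance from the transcription start in bases (vertical line, start). CHR matches (top, 24 genes) gather around the start and NF-Y box matches (bottom, 24 genes) lie before it.

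The first comparison asks how 10 days of culture changed mitotic transcripts. Called changes, at an adjusted p under 0.05 in limma over all 22180 genes, were found for 35 of the 39 genes, all 35 higher in culture and 0 lower (0 lower also at an unadjusted p under 0.05). Over all genes, 12.9% were called higher and 10.3% lower. The median change of the 39 genes was 1.47 log2 units (2.77-fold, range -0.04 to 3.73), beside 0.01 over all genes. Of the called genes, 30 rose at least 2-fold and 13 at least 4-fold. Over all 22180 genes, 1255 were called with a rise of at least 2-fold, and those of at least 4-fold were not counted. For 37 genes both culture arrays lay above both quiescent arrays, which held for 31.2% of all genes. Medians of the role groups ran from 1.23 (spindle assembly) to 1.75 (central spindle and cytokinesis). In bulk RNA, more cells in mitosis and more transcript per cell cannot be told apart.

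**Figure D2:**
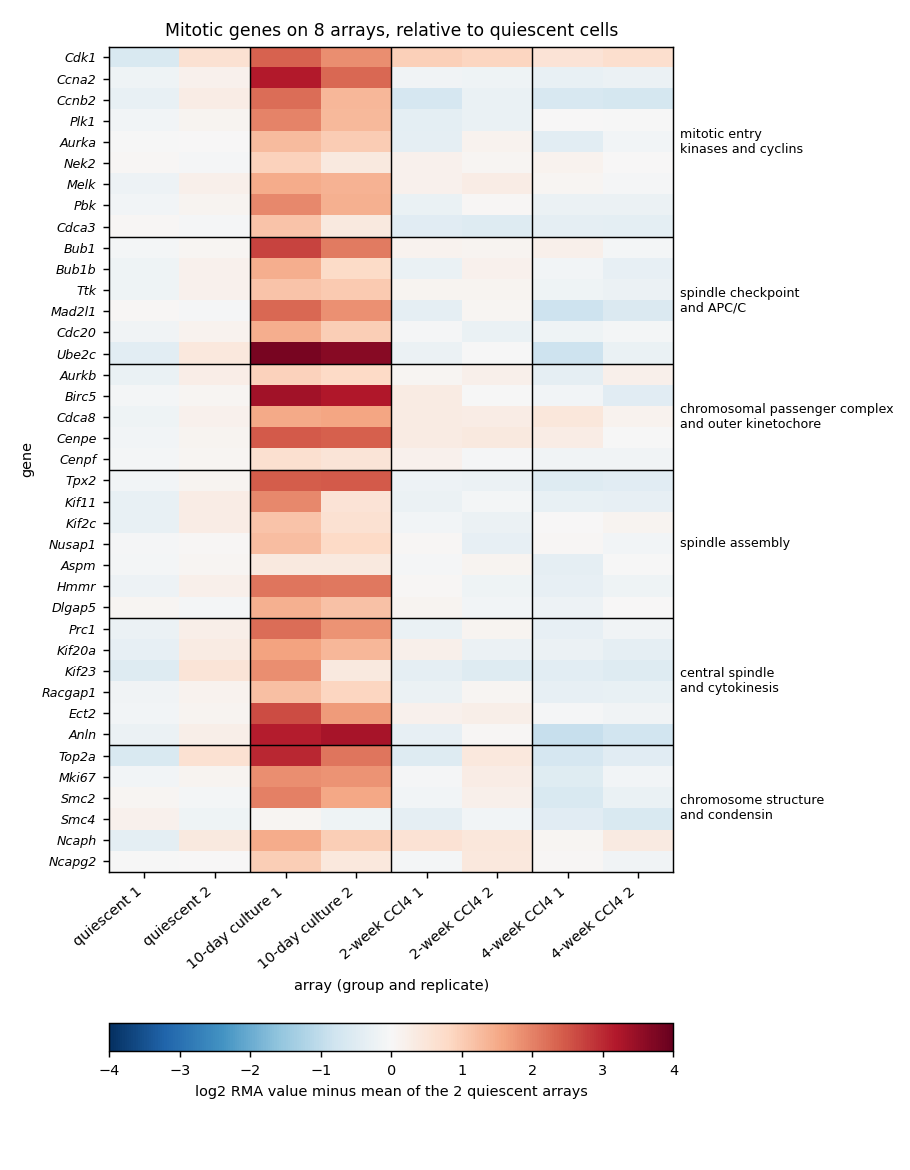
Log2 RMA value of each of the 39 genes (rows, by role) on each of the 8 arrays (columns), minus the mean of the 2 quiescent arrays of that gene (colour scale in log2 units). The 2 culture columns are red for nearly every gene, with Smc4 near 0, while the CCl4 columns stay near the quiescent level.

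All 9 kinases and cyclins of mitotic entry rose in culture, with a median of 1.64 log2 units. Ccna2 (cyclin A2), which partners CDK2 and CDK1, read 4.65 and 4.97 in quiescent cells, 7.97 and 7.12 in culture, 4.66 and 4.65 at 2 weeks of CCl4 and 4.50 and 4.57 at 4 weeks. The 6 unseeded arrays lay close together and both culture arrays lay far above them, a rise of 2.74 ± 0.25 (SE, n = 2 arrays a group; 6.67-fold, limma adjusted p = 8.7e-05). Cdk1, the kinase that drives mitosis, read 6.14 and 7.35 in quiescent cells, 9.11 and 8.60 in culture, 7.69 and 7.60 at 2 weeks and 7.29 and 7.41 at 4 weeks. Its culture arrays were again the highest, a rise of 2.11 ± 0.34 (4.33-fold, adjusted p = 0.002), but the quiescent pair differed by 1.21 units, the widest gap among the quiescent pairs of the 39 genes. Nek2, a kinase that splits centrosomes, rose least in this group (3.76 and 3.64 to 4.61 and 4.09). Its change was 0.66 ± 0.18 (adjusted p = 0.0287), and all 8 of its values were at or below the background guide. Ccnb2 (cyclin B2) rose by 1.78 ± 0.30, Plk1 (polo-like kinase) by 1.64 ± 0.22, Aurka (the centrosomal Aurora kinase) by 1.15 ± 0.20 and Cdca3, a mitotic entry factor, by 0.77 ± 0.22. The kinases Pbk and Melk rose by 1.67 ± 0.19 and 1.43 ± 0.17.

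The 6 genes of the spindle checkpoint and its target, the APC/C, all rose, with a median of 1.64. Ube2c, the ubiquitin-conjugating enzyme that starts chains for the APC/C, showed the largest rise of the 39 genes, and ranked 54 of all 22180 by rise. It read 4.96 and 5.78 in quiescent cells, 9.17 and 9.01 in culture, 5.14 and 5.35 at 2 weeks and 4.53 and 5.09 at 4 weeks, so the culture arrays stood far above every other array. The change was 3.73 ± 0.28 (13.2-fold, adjusted p = 2.48e-05). Bub1, a checkpoint kinase at the kinetochore, went from 3.50 and 3.66 to 6.28 and 5.65 in culture, against 3.72 and 3.67 at 2 weeks and 3.78 and 3.51 at 4 weeks. Its 6 unseeded arrays were all in the background range, and its rise was 2.38 ± 0.21 (5.21-fold, adjusted p = 6.79e-05). Mad2l1 (MAD2), which binds and blocks Cdc20, rose by 2.06 ± 0.21. Cdc20, the APC/C activator that the checkpoint restrains, rose by 1.23 ± 0.19, and Bub1b (BubR1), which joins MAD2 in that block, by 1.11 ± 0.25. Ttk (MPS1), the kinase at the top of the checkpoint, rose least here, from 4.11 and 4.45 to 5.43 and 5.31, with 4.40 and 4.38 at 2 weeks and 4.12 and 4.03 at 4 weeks. Its rise of 1.09 ± 0.15 still set both culture arrays above the other 6.

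All 5 genes of the chromosomal passenger complex and the outer kinetochore rose, with a median of 1.55. Birc5 (survivin), the subunit that brings the complex to centromeres, read 3.97 and 4.12 in quiescent cells, 7.39 and 7.24 in culture, 4.36 and 4.04 at 2 weeks and 3.94 and 3.58 at 4 weeks. Every unseeded array was at or below the background guide, and the rise of 3.27 ± 0.18 (9.64-fold) had the smallest adjusted p of the 39 genes, 4.95e-06. Cenpe, a kinesin that carries chromosomes to the spindle equator, went from 3.97 and 4.20 to 6.53 and 6.49 in culture, against 4.41 and 4.46 at 2 weeks and 4.39 and 4.07 at 4 weeks. Its rise was 2.42 ± 0.16 (5.37-fold), and again no unseeded array passed the guide. Cdca8 (borealin) and Aurkb (Aurora B), the other passenger proteins among the 39, rose by 1.55 ± 0.17 and 0.86 ± 0.23. Incenp, a passenger protein measured in a separate list of further mitotic genes, rose by 0.97 ± 0.16. Cenpf, a kinetochore protein, read 4.01 and 4.17 in quiescent cells, 4.73 and 4.59 in culture, 4.25 and 4.03 at 2 weeks and 3.96 and 3.95 at 4 weeks. Its rise of 0.58 ± 0.14 (adjusted p = 0.0193) was the smallest called, and all 8 of its values were in the background range.

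Of the 7 genes of spindle assembly, 6 rose, with a median of 1.23. Tpx2, which recruits and activates Aurora A on spindle microtubules, read 4.74 and 4.97 in quiescent cells, 7.26 and 7.30 in culture, 4.64 and 4.61 at 2 weeks and 4.33 and 4.41 at 4 weeks. The culture arrays were nearly equal and the rise was 2.43 ± 0.14 (5.38-fold, adjusted p = 6.71e-06). Hmmr (RHAMM), a hyaluronan receptor that also works at spindle poles, went from 3.70 and 4.09 to 6.05 and 6.0 in culture, with 3.94 and 3.72 at 2 weeks and 3.57 and 3.73 at 4 weeks. Its rise was 2.12 ± 0.17 (4.36-fold). Dlgap5 (HURP), which bundles microtubules near chromatin, rose by 1.29 ± 0.16, Nusap1, a microtubule crosslinker, by 1.01 ± 0.19 and Kif2c (MCAK), a microtubule-depolymerising kinesin, by 0.87 ± 0.24. Kif11 (Eg5), the motor that pushes spindle poles apart, was called at 1.23 ± 0.38 with an adjusted p of 0.0488, just under the threshold. Its culture arrays read 6.42 and 5.05 and its quiescent arrays 4.19 and 4.82. Aspm, a spindle pole protein, read 3.65 and 3.82 in quiescent cells and 4.14 and 4.13 in culture, with 3.69 and 3.85 at 2 weeks and 3.37 and 3.71 at 4 weeks. Its groups did not overlap, but its difference of 0.40 ± 0.16 was not called (adjusted p = 0.114) and all 8 arrays were in the background range.

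Of the 6 genes of the central spindle and cytokinesis, 5 rose, with a median of 1.75. Anln (anillin), the scaffold of the contractile ring, read 5.88 and 6.34 in quiescent cells, 9.24 and 9.39 in culture, 5.77 and 6.17 at 2 weeks and 5.17 and 5.33 at 4 weeks. It stood above the background guide on all 8 arrays and rose by 3.20 ± 0.20 in culture (9.22-fold, adjusted p = 9.68e-06). Ect2, the exchange factor that activates RhoA at the equator, went from 3.61 and 3.80 to 6.31 and 5.42 in culture, with 3.88 and 3.95 at 2 weeks and 3.65 and 3.56 at 4 weeks. Its rise was 2.16 ± 0.25 (4.45-fold). Prc1, which bundles the antiparallel microtubules of the central spindle, rose by 2.02 ± 0.22, and Kif20a (MKLP2), which brings the passenger complex there, by 1.47 ± 0.24. Racgap1 and Kif23, the partners that form centralspindlin, stood on either side of the threshold. Racgap1 went from 4.85 and 5.16 to 6.21 and 5.87, with 4.76 and 5.09 at 2 weeks and 4.69 and 4.71 at 4 weeks, a rise of 1.03 ± 0.18 (adjusted p = 0.00354). Kif23 read 3.34 and 4.39 in quiescent cells and 5.72 and 4.25 in culture, so its groups overlapped and its difference of 1.12 ± 0.45 was not called (adjusted p = 0.119). The difference between the changes of these partners was not tested.

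Of the 6 genes of chromosome structure, 4 rose, with a median of 1.51. Top2a (topoisomerase IIα), which untangles sister chromatids, read 4.09 and 5.29 in quiescent cells, 7.70 and 6.83 in culture, 4.19 and 5.11 at 2 weeks and 4.02 and 4.25 at 4 weeks. The unseeded arrays spread over more than 1 unit, the second array of the quiescent and 2-week pairs being the high ones, yet all stayed below culture, and the rise was 2.57 ± 0.44 (5.95-fold, adjusted p = 0.00272). Mki67 (Ki-67), the coat protein of mitotic chromosomes used as a proliferation marker, went from 5.10 and 5.34 to 7.09 and 7.03 in culture, with 5.17 and 5.51 at 2 weeks and 4.75 and 5.09 at 4 weeks. Its rise was 1.84 ± 0.18 (3.58-fold, adjusted p = 0.000123).

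Of the 4 condensin genes measured in this role group, which encode the ring complex that compacts chromosomes, 2 were called. Smc2, a core ATPase subunit, rose by 1.78 ± 0.21 and Ncaph, the kleisin of condensin I, by 1.24 ± 0.26. Ncapg2, a subunit of condensin II, read 5.12 and 5.13 in quiescent cells and 6.11 and 5.54 in culture, a difference of 0.70 ± 0.23 just short of the threshold (adjusted p = 0.0568). Smc4, the other ATPase subunit, read 8.70 and 8.38 in quiescent cells, 8.62 and 8.38 in culture, 8.19 and 8.44 at 2 weeks and 8.08 and 7.92 at 4 weeks. Quiescent and culture arrays overlapped, and the 95% interval of the difference, -0.43 to 0.35, reached neither a 2-fold rise nor a 2-fold fall. Other condensin subunits, measured in the separate list of further mitotic genes, were not called in culture. These were Ncapd2 (0.68 ± 0.23, limma adjusted p = 0.0615), Ncapd3 (0.01 ± 0.18, 0.978) and Ncaph2 (0.37 ± 0.17, 0.169).

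**Figure D3:**
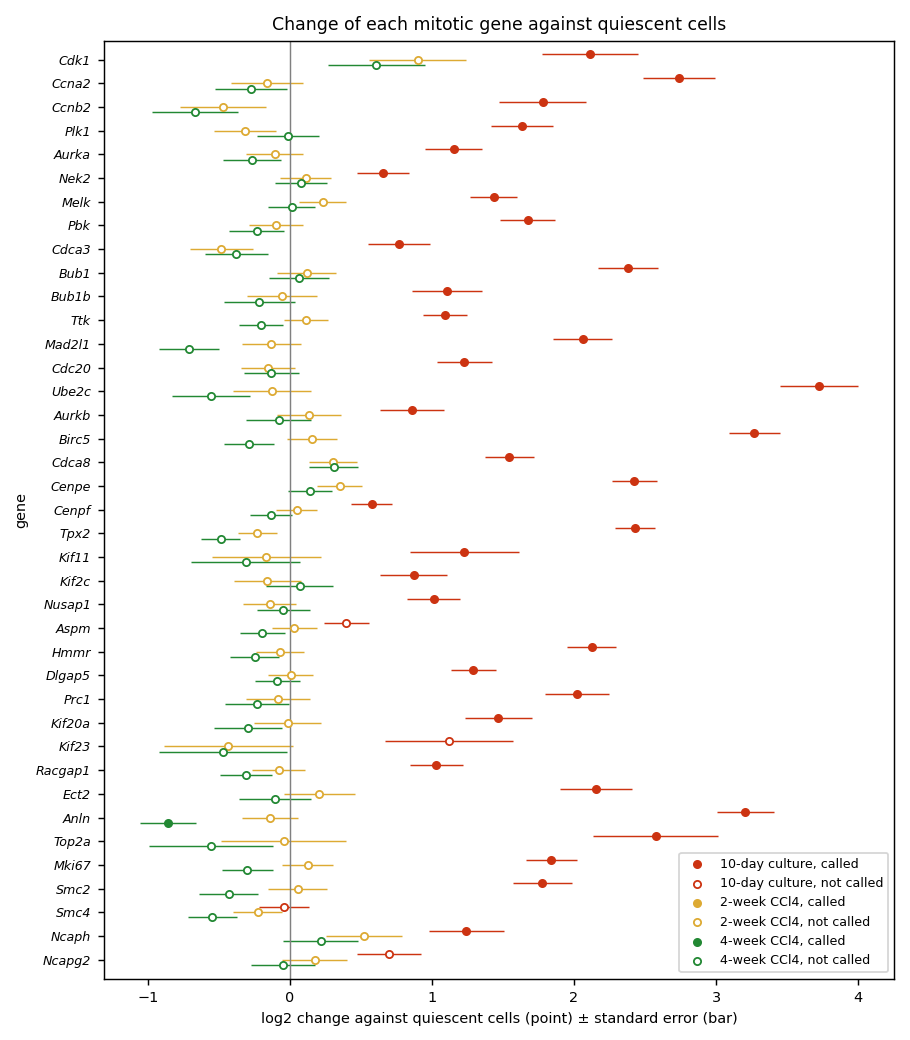
Fitted log2 change of each gene (rows) against quiescent cells, with its standard error as a bar, for 10-day culture (red), 2-week CCl4 (yellow) and 4-week CCl4 (green); filled points were called. Red points lie to the right for all but Smc4, and yellow and green points lie around 0, with Anln at 4 weeks the one filled point among them.

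After 2 weeks of CCl4, with stellate activation markers raised, 0 of the 39 genes were called higher and 0 lower, where 2.34% and 2.43% of all genes were. The median change was -0.06 log2 units, beside 0.00 over all genes. The smallest adjusted p was 0.215, for Cdk1, whose 2-week arrays (7.69 and 7.60) lay above both quiescent arrays (6.14 and 7.35) with a difference of 0.90 ± 0.34. Cdk1 was the one gene of the 39 with an unadjusted p under 0.05 in limma. Over all 22180 genes, 1760 were higher and 1993 lower at that threshold. For 37 genes the 95% interval of the change ended below a 2-fold rise, and the exceptions were Cdk1 and Ncaph. Without the second quiescent array, Cdk1 was called at both CCl4 times, at 1.5 (adjusted p = 0.00542) and 1.21 (adjusted p = 0.0113). Both 2-week arrays lay above both quiescent arrays for 7 genes and below them for 3, shares that were 22.0% and 21.6% over all genes.

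After 4 weeks, limma called 0 genes higher (0 also at an unadjusted p under 0.05) and 1 lower, where 4.04% and 4.67% of all genes were. At that unadjusted threshold 4 of the 39 were lower, and over all 22180 genes 2107 were higher and 2459 lower. The one called was Anln, at -0.86 ± 0.20 (1.81-fold lower, adjusted p = 0.0314), its 4-week arrays at 5.17 and 5.33 lying below all others. This call was kept in 3 of the 8 fits that left out 1 array, with adjusted p up to 0.195 in the others, and the fits that lost it were those without the second quiescent array, either culture array or either 4-week array. The median change of the 39 genes was -0.23, beside -0.00 over all genes, and without the second quiescent array it was -0.04. The fitted change was below 0 for 31 genes, as for 50.3% of all genes. Both arrays lay below both quiescent arrays for 14 (24.7% of all genes) and above them for 0 (24.0%). Tpx2 (-0.49 ± 0.14, adjusted p = 0.0682), Mad2l1 (-0.71 ± 0.21, 0.0766) and Smc4 (-0.54 ± 0.17, 0.0992) were the nearest to the threshold after Anln. For 38 genes, all but Cdk1, the interval ended below a 2-fold rise.

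Between the CCl4 times, 0 genes were called higher and 0 lower at 4 weeks, where 0.0271% and 0.0586% of all genes were. In limma, 5 had an unadjusted p under 0.05, all lower at 4 weeks: Anln (-0.72 ± 0.20), Mad2l1 (-0.58 ± 0.21), Smc2 (-0.49 ± 0.21), Birc5 (-0.44 ± 0.18) and Mki67 (-0.42 ± 0.18). Over all 22180 genes, 855 were higher and 955 lower at that threshold. The smallest adjusted p was 0.315, for Anln. The 39 changes had a median of -0.21, with 33 below 0, as were 51.8% of all genes. Both 4-week arrays lay below both 2-week arrays for 19 genes (20.2% of all genes) and above them for 3 (18.8%). Markers of several other cell types were lower at 4 weeks too. The fitted change was below 0 for 11 of 12 macrophage (median -1.49) and 11 of 11 hepatocyte markers (median -1.40). It was also below 0 for 12 of 12 endothelial (median -0.70) and 8 of 8 neutrophil markers (median -0.60). In limma 4 of these were called, all of macrophages (Csf1r, C1qb, Vsig4 and Cd68). Of the lists, in that order, 11, 8, 5 and 2 markers had an unadjusted p under 0.05. Those 4 calls were not kept when either culture array, either 2-week array or the second 4-week array was left out. Lymphocyte markers did not share this fall, with 4 of 10 below 0 (median 0.11). Of 5 cholangiocyte markers 3 were below 0 (median -0.02). The part of these cells in the shift of the mitotic genes was not tested.

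The direct test of culture against both CCl4 times, averaged, leaves the quiescent arrays out of the contrast. With limma, 37 of the 39 genes were called higher in culture and 0 lower (0 lower also at an unadjusted p under 0.05), where 12.6% and 8.72% of all genes were. The median difference was 1.47 log2 units (2.76-fold), beside 0.00 over all genes. Ube2c differed most (4.07 ± 0.24, 16.8-fold), followed by Anln (3.70 ± 0.17, 13.0-fold) and Birc5 (3.34 ± 0.15, 10.1-fold). Aspm and Kif23, which were not called against quiescent cells, were called here, at 0.48 ± 0.14 (adjusted p = 0.0363) and 1.57 ± 0.39 (adjusted p = 0.0201). The genes not called were Smc4 (0.34 ± 0.15, adjusted p = 0.156) and Ncapg2 (0.63 ± 0.20, adjusted p = 0.0504). For 36 of the 39 genes, all but Kif23, Smc4 and Ncapg2, both culture arrays exceeded all 6 unseeded arrays, which held for 17.7% of all genes.

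**Figure D4:**
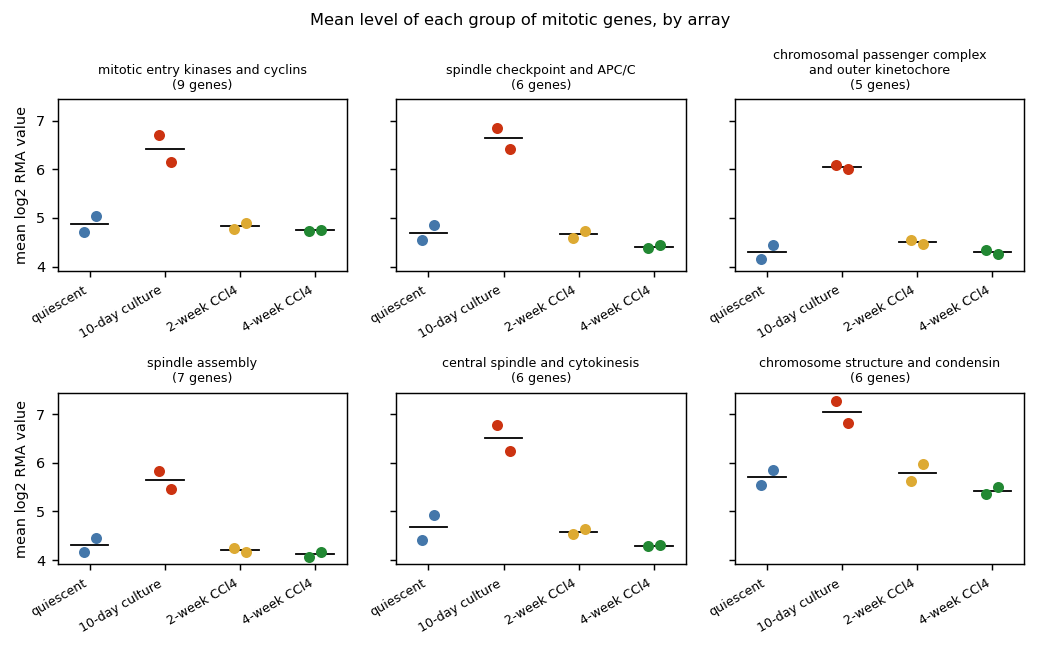
Mean log2 RMA value over the genes of each role (panels) on each array (points; bars, mean of the 2 arrays), by group on the horizontal axis. In each panel both culture points lie above the other 6. The gap is narrowest for chromosome structure and condensin, where the other 6 run from 5.35 to 5.98 and culture reads 7.27 and 6.82.

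Background levels set how far the unseeded groups can be read. Of the 39 genes, 18 were at or below the guide of 4.76 on all 6 unseeded arrays, and 13 of these were above it on both culture arrays, among them Birc5, Bub1, Cenpe and Hmmr. The 7 genes above it on all 8 arrays were Cdk1, Ccnb2, Cdc20, Anln, Smc2, Smc4 and Ncapg2. Nek2, Cenpf and Aspm never passed it. The number of genes above the guide was 15 and 21 in quiescent cells, 36 and 34 in culture, 15 and 14 at 2 weeks and 10 and 12 at 4 weeks. The matching counts over all genes were not made, so how unusual these counts are for the 39 genes cannot be said. A fall of a gene near background would be compressed on this scale.

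The genes also moved together between the 2 quiescent arrays and between the 2 culture arrays. The second quiescent array was the higher one for 33 of 39 genes, with a median difference of 0.29, where 56.1% of all genes were higher on it. The first culture array was the higher for 36 of 39, with a median difference of 0.45, where 51.2% of all genes were. Within the CCl4 pairs no such shift was seen. The first array was the higher for 18 of 39 at 2 weeks (49.0% of all genes) and 20 of 39 at 4 weeks (51.2%). Differences over 2-fold within a pair occurred for Cdk1, Top2a and Kif23 in quiescent cells and for Kif11 and Kif23 in culture, and for 0 genes within either CCl4 pair. The count called in culture fell from 35 to 28 without the first quiescent array and to 27 without the first culture array. The 27 genes called in every fit that left out 1 array included all those with a rise of at least 4-fold. Calls of Nek2, Cdca3, Bub1b, Aurkb, Cenpf, Kif11, Kif2c and Ncaph were lost in at least 1 such fit.

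Other genes of the division machinery, in lists that do not overlap with the 39, put this rise in context. Over all genes, 12.9% were called higher and 10.3% lower in culture against quiescent cells. At 2 weeks of CCl4 these shares were 2.34% and 2.43%, and at 4 weeks 4.04% and 4.67%. Of 42 further mitotic genes, 26 were called higher in culture and 0 lower in limma (1 lower, Cks2, at an unadjusted p under 0.05), with a median of 0.92. The smallest p-values were those of Gtse1, a microtubule-binding protein of G2 phase (3.11 ± 0.15), Depdc1a (2.50 ± 0.16) and Wee1, the kinase that holds CDK1 inactive (2.47 ± 0.16). After 4 weeks of CCl4, 3 of the 42 were called lower and 1 higher. Those lower were Cks2, a CDK-binding subunit (-1.89 ± 0.16, adjusted p = 3e-04), Pttg1 (securin), the separase inhibitor (-1.38 ± 0.19, 0.00298), and Fbxo5 (EMI1), an APC/C inhibitor (-0.73 ± 0.15, 0.0173). Cks1b, the paralogue of Cks2, was the one higher (0.77 ± 0.17, 0.0269). Cks2 was also the one of the 42 called at 2 weeks (-0.79 ± 0.16, 0.0249), and its values of 9.92 and 10.19 in quiescent cells, 9.65 and 9.57 in culture, 9.27 and 9.27 at 2 weeks and 8.30 and 8.04 at 4 weeks put both CCl4 groups below both others.

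Of 28 kinetochore and centromere genes, 19 rose in culture and 0 fell (0 at an unadjusted p under 0.05), with a median of 1.01. Cenpw (2.35 ± 0.17), Ska3 (2.12 ± 0.17) and Cenpk (1.86 ± 0.15) had the smallest p-values. In limma 0 of the 28 were called at either CCl4 time, with 3 and 2 at an unadjusted p under 0.05. Cohesin, the ring that holds sister chromatids together, went mostly the other way: of 13 genes, 6 fell in culture and 2 rose, with a median of -0.25. The core subunits Smc1a, Smc3, Rad21 and Stag1 fell by 0.75, 0.57, 0.59 and 0.78, and the loader Nipbl and the regulator Pds5b by 0.56 and 0.65. Esco2, the acetyltransferase that locks cohesin during DNA replication, rose by 1.19 ± 0.20, and Cdca5 (sororin), which protects that lock, by 1.04 ± 0.26. Of 15 APC/C core genes, 3 rose in culture and 0 fell in limma (1 lower at an unadjusted p under 0.05), with a median of 0.33. Those that rose were Anapc15, Cdc16 and Anapc4, Anapc15 by 1.47 ± 0.18. At 4 weeks 2 were called higher, Anapc15 (1.0 ± 0.18, adjusted p = 0.0104) and the activator Fzr1 (CDH1, 0.81 ± 0.18, 0.0246).

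Among 19 transcription regulators of the cell cycle, 7 rose in culture and 2 fell, where 12.9% and 10.3% of all genes did. The median was 0.35. Foxm1, which drives late cell cycle genes, went from 4.84 and 4.76 to 6.20 and 5.81 in culture, with 4.34 and 4.41 at 2 weeks and 4.61 and 4.89 at 4 weeks, a rise of 1.21 ± 0.17. E2f8, a repressor E2F, rose by 1.60 ± 0.20. Rbl2 (p130), the pocket protein of the DREAM repressor complex in resting cells, fell by 1.57 ± 0.24, and Lin52, a MuvB subunit, fell by 1.15 ± 0.29. E2f3, an activator E2F, was called higher in all 3 groups, by 2.50 ± 0.20 in culture, 1.08 ± 0.20 at 2 weeks (adjusted p = 0.0197) and 1.35 ± 0.20 at 4 weeks (adjusted p = 0.00471). These comparisons share the quiescent arrays. Rb1, the retinoblastoma protein that restrains E2Fs, read 8.07 and 7.89 in quiescent cells, 7.92 and 7.72 in culture, 7.42 and 7.27 at 2 weeks and 6.91 and 6.84 at 4 weeks, with changes after CCl4 of -0.64 ± 0.15 and -1.11 ± 0.15 (adjusted p = 0.0454 and 0.00269). Tfdp2, a DNA-binding partner of E2Fs (-1.60 ± 0.29, 0.0113), and Rbl2 (-0.94 ± 0.24, 0.0446) were the others called lower at 4 weeks.

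DNA replication genes are made earlier in the cycle, at the passage from G1 to S phase. Of 32 measured, 19 rose in culture and 0 fell (0 at an unadjusted p under 0.05), with a median of 0.77. Rrm2, the regulated subunit of ribonucleotide reductase, went from 4.39 and 4.64 to 8.69 and 8.58, a rise of 4.12 ± 0.14, and Gins2, which joins the helicase to DNA polymerase, rose by 2.26 ± 0.20. At 2 weeks of CCl4, 2 of the 32 were called higher: Rrm1, the catalytic subunit (0.93 ± 0.15, adjusted p = 0.00935), and Mcm6, part of the replicative helicase (1.28 ± 0.14, adjusted p = 0.00205). Mcm6 read 4.90 and 5.10 in quiescent cells, 6.88 and 6.93 in culture, 6.30 and 6.26 at 2 weeks and 5.21 and 5.03 at 4 weeks, so that the 2-week arrays stood between quiescent and culture with no overlap. Rrm1 was still called at 4 weeks (0.60 ± 0.14, adjusted p = 0.0375), where Prim1, a primase subunit, was lower (-0.70 ± 0.18, adjusted p = 0.0442). No mitotic gene of the 39 was called at 2 weeks, but whether replication and mitotic genes differ as lists was not tested.

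**Figure D5:**
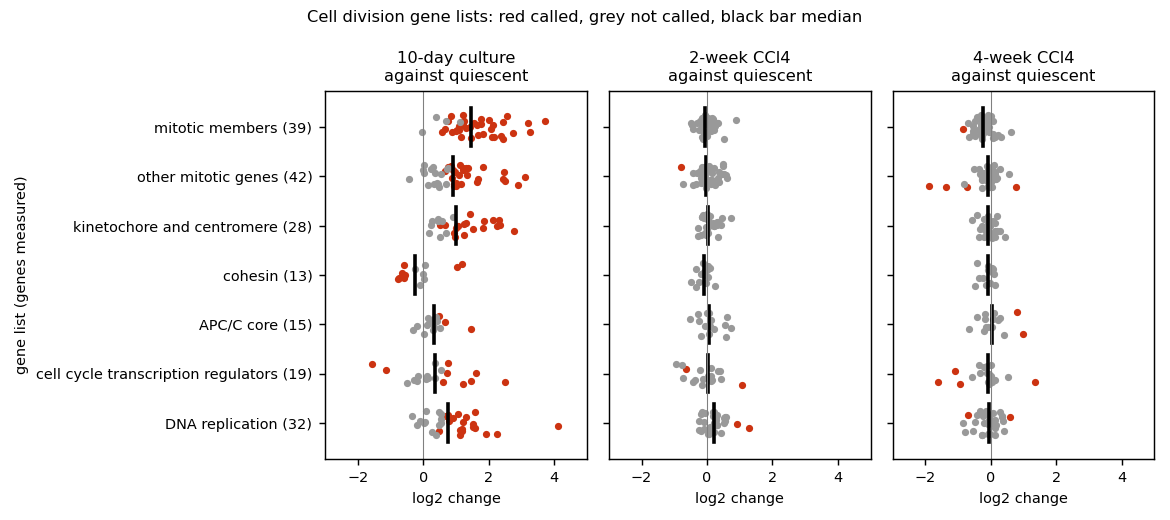
Log2 change against quiescent cells (horizontal axis) of every gene in 7 lists of the division machinery, for culture, 2-week and 4-week CCl4 (panels); red points were called and black bars are list medians. In culture the median is highest for the 39 mitotic genes (1.47) and below 0 for cohesin (-0.25), and after CCl4 the medians lie near 0.

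The size of the rise in culture is given by promoter motif as a description, without a test. The 24 genes whose window holds TTTGAA had a median change in culture of 1.39, and the 8 with a window lacking it had a median of 1.75. The genes lacking it were Nek2, Melk, Bub1, Mad2l1, Birc5, Cenpe, Nusap1 and Ncaph, which include both a large rise (Birc5) and the smallest of the mitotic entry group (Nek2). The share of windows with TTTGAA was 52.8% for the further mitotic genes (19 of 36) and 45.8% for kinetochore genes (11 of 24), and 14.3% for APC/C core genes (2 of 14).

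Markers of other cells moved with the culture result. Against quiescent cells, 11 of 11 hepatocyte, 12 of 12 endothelial and 10 of 12 macrophage markers were called lower in culture, where the mitotic genes rose, and their part in the rise was not tested. Hepatocyte-defining Alb was at 4.42 and 4.17 in culture, below the guide, as were Fgb, Fgg, Ahsg and Hpx. Of 10 lymphocyte markers, limma called 0 against quiescent cells in any group (1 or 2 at an unadjusted p under 0.05 in each). In culture 8 of the 10 lay below the guide, and 6 of these lay below it on every array of all 4 groups. After 4 weeks of CCl4, 11 hepatocyte, 10 endothelial and 9 macrophage markers were lower and 1 macrophage marker was higher. At 2 weeks the counts lower were 5, 8 and 1, with 2 macrophage markers higher, and the part of these cells in the CCl4 values of the mitotic genes was not tested.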

How the data were processed

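The authors deposited log2 expression values of 41345 probe sets on 8 arrays, made with RMA. The submitters' processing notes name Affymetrix Expression Console and no version. RMA brings the arrays to 1 distribution, which would hide a shift common to most genes. RNA was preamplified before labelling, per the labels' protocols. The platform annotation gave 1 symbol to 23521 probe sets, several to 1814 and none to 16010 here. Single-symbol probe sets were used, the one with the highest mean for the 1082 genes with several, which left 22180 genes. Each mitotic gene had 1 such probe set.

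Groups were compared in a single limma 3.58.1 fit (R 4.3.3, lmFit and eBayes, no trend, not robust) of all 8 arrays and 4 groups, with 4 residual and 4.75 prior degrees of freedom and 5 two-sided comparisons. Benjamini-Hochberg adjustment ran over the 22180 genes of a comparison, and an adjusted p under 0.05 made a call. The script was tested on simulated data. With 2 arrays against 2, an exact permutation test reaches p = 0.333 at best and was not used. The number of arrays limits the precision. The genes and lists were chosen with earlier results of these data known. All 39 genes could be named. Array values are given for the 2 largest and the smallest change in culture of each role and for genes called after CCl4. Of each other list, the 3 smallest p-values in culture, members against their list and up to 3 called after CCl4 are named. Alternatives were a replicate block, another variance model, only the groups compared, the mean of probe sets, a filter on low values, other normalizations, array weights, a minimum log2 change of 1 and leaving out each array.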

Additional observations from a re-analysis of the deposited data

Results flagged for a closer look

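The changes of Mcm6 at the 2 CCl4 times differed by the test of the difference itself: 4 weeks minus 2 weeks was -1.16 ± 0.14 log2 units (SE, n = 2 arrays a group; limma adjusted p = 0.0344), and both 4-week arrays (5.21 and 5.03) lay below both 2-week arrays (6.30 and 6.26). By the same test, 4 of 12 macrophage markers differed between the CCl4 times, each lower at 4 weeks. Neither the Mcm6 call nor these 4 was kept when either culture array, either 2-week array or the second 4-week array was left out.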

How the results depend on the processing

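The count of mitotic genes called higher in culture against quiescent cells was 35, and 30 to 37 under the alternatives other than leaving out an array: 30 with only the groups compared or with a minimum log2 change of 1, 33 after a filter on low values and 37 after centring arrays on their medians. Leaving out 1 array gave 27 to 35, and a median change of 1.32 to 1.86. Against the mean of both CCl4 times, leaving out 1 array gave 28 to 37 genes and a median of 1.27 to 1.77. At 2 weeks of CCl4 leaving out 1 array gave 0 to 1 genes higher, and at 4 weeks 0 to 1 higher and 0 to 1 lower, the gene higher being Cdk1 without the second quiescent array. The median at 4 weeks ran from -0.34 to -0.041. The one gene lower at 4 weeks, Anln, was not called (0 genes) with only the groups compared or with a minimum log2 change of 1. The sign of Smc4 in culture, which was not called, turned to 0.045 after centring, and ran from -0.20 to 0.12 when 1 array was left out, above 0 without the first quiescent or the second culture array. The cause of these shifts was not tested.

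Deviations of same-numbered arrays from their group means correlated at -0.042 to 0.0737 between groups, over all genes. Values near 0 cannot exclude a pairing by replicate number with a small effect or an effect on few genes. With the replicate number as a block, 34 genes were called higher in culture, Kif11 being the one lost (adjusted p = 0.0673), and the block changed no other call of the 39 genes. Genes near background limit what a fall could show.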
